A study of Homo sapiens with 4 samples.

Results

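Keratin transcripts were followed by RNA-seq after PRR11 silencing in ACHN, a long-established cell line from a human renal carcinoma. There were 2 siNC libraries, from cells given a control siRNA, and 2 siPRR11 libraries, and the cells of both groups were grown alike and transfected with the same lipid reagent. The keratins described here are 10 named genes among the 45 keratin genes and 36359 genes of the count table, 5 of type I (KRT15, KRT17, KRT18, KRT19 and KRT23) and 5 of type II (KRT7, KRT8, KRT80, KRT81 and KRT86). The genes were chosen by their read levels and their siPRR11 to siNC differences in these same libraries, so those values, and any count of these genes past a threshold, are given as a description that supports nothing, with no p-value. Neither the siPRR11 duplex used in each library nor whether libraries of a group came from separate cultures is stated in the sources used here. P-values therefore measure the spread between these libraries, which may be technical.

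Keratins are the intermediate filament proteins of epithelial cells. A type I and a type II chain pair to form the building unit of the filament, so a cell needs both types. KRT8 and KRT18 are the pair of simple epithelia, including renal tubules, and KRT7 and KRT19 join them in ducts and many carcinomas. KRT15 and KRT17 are known from the basal layer of stratified epithelia and from hair follicles, and KRT81 and KRT86 are hair keratins. Filaments are anchored to cell junctions by desmosomal proteins and by large linker proteins of the plakin family.

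The libraries held between 59003839 and 92612749 counted reads. PRR11, the silenced gene, stood at 41.3 and 40.4 CPM (reads of a gene relative to a library size that edgeR's TMM method adjusts) in the siNC libraries and at 15.3 and 14.0 CPM in the siPRR11 libraries. Of 10 genes listed as markers of renal epithelium and renal cancer, 8 exceeded 1 CPM in every library, while CDH6 and CA9 did not, with at most 6 reads in a library. Their summed level was 1743 to 1776 CPM in siNC and 1591 to 1622 CPM in siPRR11. VIM, which mesenchymal cells also express, held 722 and 703 CPM of it in siNC and 609 and 662 CPM in siPRR11. Of the 10, 4 passed the test described below, which 16.7% of all genes tested passed. None of the 10 leukocyte, endothelial and fibroblast markers exceeded 1 CPM in both libraries of a group. In bulk RNA, fewer cells with a transcript and less transcript per cell cannot be told apart.

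Reads can separate keratins only where their sequences differ. How reads with several places were handled is not given in the sources used here, so the sequences show only where doubt can arise. KRT15 and KRT19 are neighbours, and both were lower in silenced cells. Over 90 coding bases at the start of the central rod, KRT19 differed from KRT15 at 12 bases and KRT17 at 11. Capitals mark positions at which the 3 genes are not all alike. The sequences are from GENCODE release 44 on GRCh38, written 5′ to 3′ along the minus strand that the genes lie on, and each is in exon 1.
KRT15 (chr17:41518438-41518527): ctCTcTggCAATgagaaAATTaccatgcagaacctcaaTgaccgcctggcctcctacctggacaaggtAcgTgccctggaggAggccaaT
KRT19 (chr17:41527933-41528022): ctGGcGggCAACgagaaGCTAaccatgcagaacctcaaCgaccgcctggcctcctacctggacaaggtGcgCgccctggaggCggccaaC
KRT17 (chr17:41624183-41624272): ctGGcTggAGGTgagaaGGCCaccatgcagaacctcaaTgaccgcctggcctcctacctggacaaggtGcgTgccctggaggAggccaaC
The coding sequences of KRT15 and KRT19 were identical at 72.2% of aligned bases. Of all 50-base words in the canonical transcripts, 1.02% of those in KRT15 and 1.79% of those in KRT19 also occurred in a transcript of another gene.

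The hair keratins are different in this respect. KRT86 differed from KRT81 at 1 of 90 coding bases in the following stretch, and KRT83, a further hair keratin of the same cluster, differed from KRT81 at 11. The stretch crosses 3 exons in each gene, and capitals again mark positions that are not alike in all.
KRT81 (chr12:52288430-52290079, minus strand, exons 2 to 4): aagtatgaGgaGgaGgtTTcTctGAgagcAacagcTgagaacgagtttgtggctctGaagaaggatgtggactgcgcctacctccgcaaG
KRT86 (chr12:52303307-52304958, plus strand, exons 4 to 6): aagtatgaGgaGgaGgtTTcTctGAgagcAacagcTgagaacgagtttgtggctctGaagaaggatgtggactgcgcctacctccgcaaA
KRT83 (chr12:52317750-52319157, minus strand, exons 2 to 4): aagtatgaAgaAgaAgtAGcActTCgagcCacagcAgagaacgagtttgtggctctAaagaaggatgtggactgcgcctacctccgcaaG
KRT81 and KRT86 were identical at 93.6% of aligned coding bases, and 44.6% of the 50-base words of KRT81 and 39.9% of those of KRT86 recurred in other genes. For KRT8, KRT18 and KRT17 the shares were 39.2%, 35.3% and 17.4%, and the genes sharing most with KRT8 and KRT18 were their processed pseudogenes KRT8P3 and KRT18P11. The values of these 5 genes are therefore uncertain where reads could be placed on a copy.

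KRT8, the type II partner in simple epithelia, had the highest read level of the 10 genes. On GRCh38 it occupies chromosome 12, 52897187 to 52949954, minus strand. Its levels were 1435 and 1169 CPM in siNC and 1498 and 1376 CPM in siPRR11. The groups overlapped, and the log2 fold change (siPRR11 over siNC) was 0.14 (standard error 0.0951). KRT18, its type I partner, lies next to it from 52948871 to 52952901 on the plus strand, and 16.3% of its exonic bases are also KRT8 exons, read on the other strand. KRT18 stood at 255 and 224 CPM in siNC and at 314 and 302 CPM in siPRR11. Both siPRR11 libraries lay above both siNC libraries, with a log2 fold change of 0.36 (standard error 0.0798).

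KRT19, a short type I keratin of ducts and many carcinomas, was lower in silenced cells. It lies on chromosome 17 from 41523617 to 41528308 on the minus strand. The siNC libraries held 611 and 503 CPM and the siPRR11 libraries 341 and 345 CPM. The groups did not overlap, and the spread was wider in siNC (SD 76 CPM, n = 2) than in siPRR11 (SD 2.74 CPM, n = 2). The log2 fold change was -0.70 (standard error 0.0901), a 1.63-fold lower level. KRT7, its usual type II companion in ducts, was at 61.1 and 42.9 CPM in siNC and at 53.6 and 45.2 CPM in siPRR11, with a log2 fold change of -0.08 (standard error 0.139). Its siNC libraries enclosed both siPRR11 libraries.

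KRT15, a keratin of basal cells, had the largest difference among the 10 genes. It lies on chromosome 17 from 41513743 to 41522529 on the minus strand, 1087 bases from KRT19, and no other gene of the table shares its exonic bases. The siNC libraries held 1383 and 1006 reads (16.9 and 17.4 CPM), and the siPRR11 libraries held 286 and 259 reads (3.03 and 3.03 CPM). The libraries of a group were close together and the groups far apart. The log2 fold change was -2.50 (standard error 0.114), a 5.65-fold lower level, and it was -1.23 on the log2(RPKM + 1) scale, which compresses differences of genes at low RPKM. By the distance of centred log2 CPM over the 4 libraries, VGF (0.419), AK5 (0.547) and HES7 (0.574) were nearest to KRT15 among 14193 genes whose average log2 CPM reached 1. Their log2 fold changes were -2.11, -2.06 and -2.01. The distance largely reflects the difference between the groups, which was in view when KRT15 was chosen, so nothing is read from it. KRT17, the basal keratin at the end of the same cluster, was at 4.10 and 4.42 CPM in siNC and at 3.87 and 4.58 CPM in siPRR11. Its groups overlapped, with a log2 fold change of -0.01 (standard error 0.149).

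KRT80, a type II keratin found in many epithelia, was at 186 and 243 CPM in siNC and at 177 and 204 CPM in siPRR11. The groups overlapped, and the log2 fold change was -0.17 (standard error 0.114). KRT23, a type I keratin, was barely detected, with 0 and 8 reads in siNC and 6 and 14 in siPRR11. The 0 in siNC library 1 allows a level of up to 0.0367 CPM (3 counts, counting error only). Most counts from 1 to 9 were even in every library, and if read pairs were counted as 2 that limit is 0.0734 CPM (6 counts). The fitted log2 fold change of 0.88 (standard error 1.04) ranged from -0.29 to 6.31 with a single library removed, and no direction is read from it.

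The hair keratin KRT81 was at 1.57 and 1.45 CPM in siNC and at 1.71 and 3.16 CPM in siPRR11. The groups did not overlap, but siPRR11 library 2 stood apart, and the log2 fold change of 0.68 (standard error 0.268) was 0.18 without it. KRT86, its near copy, showed its highest level in the same library, with 1.22 and 1.41 CPM in siNC and 1.18 and 1.74 CPM in siPRR11. Its log2 fold change was 0.15 (standard error 0.248), and -0.16 without siPRR11 library 2. KRT83 was also highest there, at 0.725 CPM against 0.255 to 0.345 CPM in the other libraries. Sharing of reads among these genes was not tested.

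**Figure D1:**
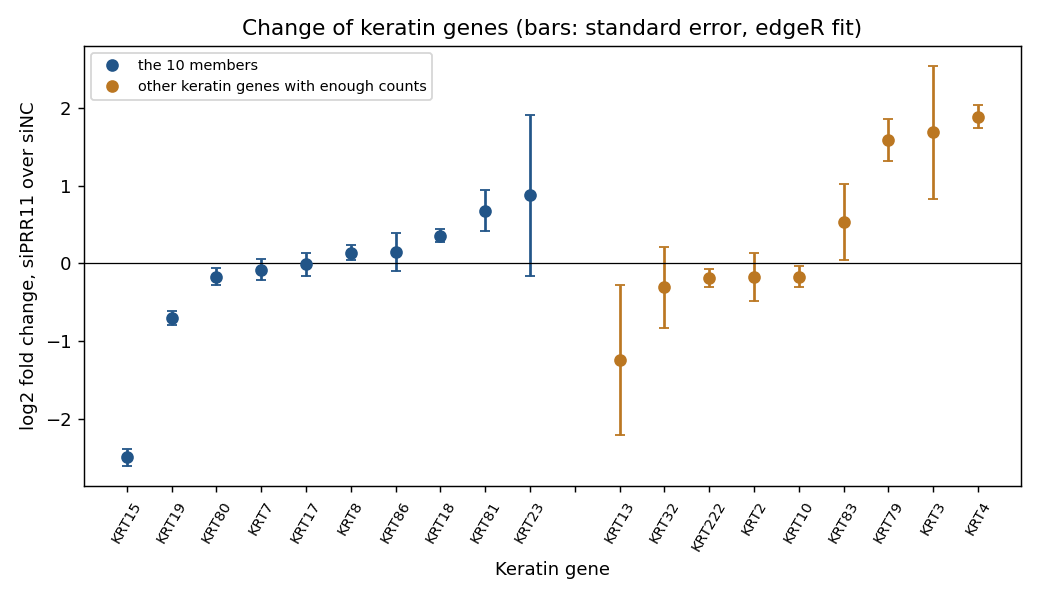
Log2 fold change of siPRR11 over siNC from edgeR's fit, with its standard error, for the 10 keratins (left) and for the 9 other keratin genes with enough counts (right). KRT15 has the lowest value at -2.50, and KRT4 the highest at 1.89.

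Pseudogenes are copies of genes or of their mRNAs in the genome that can take reads from their parent gene. The table held 44 rows for pseudogenes of KRT8 and 47 for those of KRT18. Together they held between 1.35% and 1.67% of the reads of KRT8 and between 0.423% and 0.661% of those of KRT18. For KRT17 the share was between 3.06% and 6.64%, on 12 to 20 reads, and for KRT19 at most 0.0407%. KRT17P4 held 2.74% of the reads of KRT17, from 6 to 14 reads in a library.

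Levels of different genes can be compared only per length. The exonic length in the table joins all annotated transcripts and is far longer than the main mRNA for some genes, at 7121 against 1712 bases of the canonical transcript for KRT15 and 6881 against 1784 for KRT8. Per kb of canonical transcript, the order in siNC was KRT8 (730 ± 105 CPM per kb, SD, n = 2), KRT19 (401 ± 54.7), KRT18 (169 ± 15.4), KRT80 (55.3 ± 10.5), KRT7 (32.0 ± 7.9), KRT15 (10.0 ± 0.177), KRT17 (2.81 ± 0.147), KRT81 (0.781 ± 0.043), KRT86 (0.587 ± 0.06) and KRT23 (0.0312 ± 0.0442). No 2 neighbours in this order overlapped between their libraries. Per kb of the length in the table, KRT19 (238 CPM per kb) came before KRT8 (189 CPM per kb), and the other places were the same. The RPKM values use that length. In RPKM, KRT19 was at 257 and 212 in siNC and at 148 and 150 in siPRR11, KRT8 at 205 and 167 against 222 and 203, and KRT15 at 2.34 and 2.39 against 0.434 and 0.432. In siPRR11, KRT15 (1.77 CPM per kb of canonical transcript) came after KRT17 (2.79 CPM per kb), and KRT8 was first on both scales.

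The balance of both keratin types differed between the groups. Per kb of exonic length in the table, the type I keratins summed to 345 and 289 CPM per kb in siNC and to 245 and 244 CPM per kb in siPRR11. The type II keratins summed to 267 and 238 CPM per kb in siNC and to 273 and 260 CPM per kb in siPRR11, where the groups overlapped. The ratio of type I to type II was 1.29 and 1.22 in siNC and 0.899 and 0.937 in siPRR11. Per kb of canonical transcript it was 0.709 and 0.716 in siNC and 0.513 and 0.546 in siPRR11, so the height of the ratio depended on the length used and its direction did not. KRT19 made up 41.8% ± 1.29 (SD, n = 2) of the summed level in siNC and 28.7% ± 0.806 in siPRR11 per kb of the table's length, while KRT18 made up 13.1% ± 0.197 and 18.7% ± 0.142. KRT8 made up 33.2% ± 1.29 and 40.8% ± 1.64, and KRT15 only 0.425% ± 0.0525 and 0.0833% ± 0.00157. These sums hold the genes chosen with the difference known and were not tested.

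**Figure D2:**
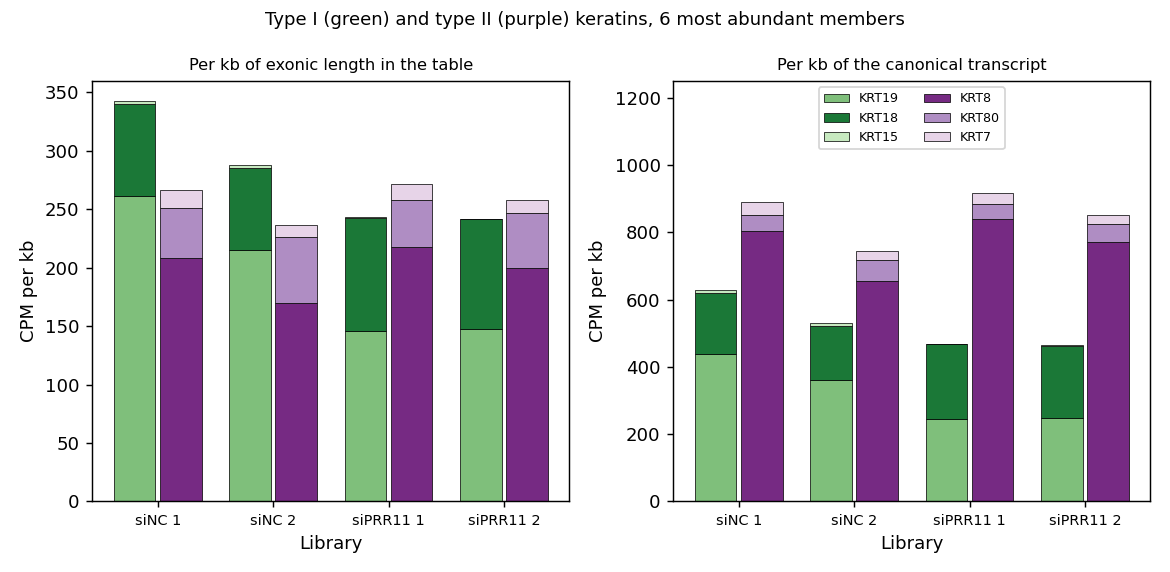
Summed levels (CPM per kb) of the 3 most abundant type I keratins (green) and type II keratins (purple) in each library, per kb of the exonic length in the table (left) and of the canonical transcript (right). The KRT19 part is smaller and the KRT18 part larger in both siPRR11 libraries on both scales.

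Across all genes the groups were compared with the quasi-likelihood test of edgeR, adjusted by the Benjamini-Hochberg method, and 16.7% of the 21630 genes tested passed at an adjusted p-value of 0.05, with 7.61% higher and 9.14% lower in silenced cells. All 10 keratins had enough counts, and 3 of them were past that threshold: KRT15 and KRT19, lower in silenced cells, and KRT18, higher. The groups did not overlap for 4 of the 10, against 58.4% of all genes tested. The median log2 fold change was 0.07 for the 10 keratins and 0.00 for all genes tested. Since this contrast was in view when the genes were chosen, nothing is read from these counts. Refits use the same contrast and are listed only as its description. The count was 3 with RLE normalization (16.7% of all genes), DESeq2 (19.7%), a minimum of 10 counts in every library (19.2%), limma on log2(RPKM + 1) (8.21%) or log2(RPKM + 0.1) (8.68%), and without siPRR11 library 2 (10.6%). KRT81 was added with no filter on low counts (12.9%) and without siPRR11 library 1 (9.68%), KRT7 without siNC library 2 (17.7%), KRT8 and KRT80 without siNC library 1 (20.2%), and KRT80 and KRT81 with the replicate number as a term (32.3%). Reads on the 45 keratin genes made up between 0.223% and 0.26% of a library, and the 10 genes held between 97.2% and 97.4% of these.

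Among the other 35 keratin genes, KRT4 and KRT79 rose in silenced cells. KRT4, a type II keratin of the mucosa of the mouth and oesophagus, went from 1.97 and 2.17 CPM in siNC to 8.08 and 7.24 CPM in siPRR11. This is a log2 change of 1.89 (standard error 0.147; edgeR adjusted p = 1.27e-05), a 3.71-fold rise. KRT79, a type II keratin known from sebaceous glands and hair follicles, lies 6858 bases from KRT4 on the same strand. It went from 48 and 25 reads (0.587 and 0.431 CPM) to 159 and 122 reads (1.69 and 1.43 CPM), which is 1.59 on the log2 scale (standard error 0.269, edgeR adjusted p = 0.00213). Of the 35 genes, 26 had too few counts to be tested, with at most 13 reads in a library, and the other 7 tested genes did not pass. Among these, KRT222, a keratin-like gene in the type I cluster, had 56.6 and 45.8 CPM in siNC and 49.1 and 40.5 CPM in siPRR11 (edgeR adjusted p = 0.287), and KRT10, a keratin of differentiating epidermis, gave a log2 value of -0.17 (standard error 0.131). RP5-1028K7.3 covers 31.9% of KRT222's exonic bases on its strand, so its level is uncertain. The median over the 9 tested genes was -0.17. Of these 9, 22.2% passed. Over all genes tested 16.7% passed, and 21.7% of those averaging 0 or more in log2 CPM. Nothing particular to this list is read from the share.

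The genes with differences lay at several places in the keratin clusters, most of them beside another such gene. On chromosome 17, KRT15 and KRT19 are neighbours, and KRT17 is the last keratin gene of the cluster. KRT13, on the other side of KRT15, had between 0 and 25 reads. Its log2 fold change of -1.25 (standard error 0.967) did not pass (edgeR adjusted p = 0.427). On chromosome 12, KRT4 and KRT79 are neighbours in a stretch between KRT3 and KRT78. KRT3 had between 0 and 31 reads, and its log2 fold change of 1.69 (standard error 0.856) did not pass (edgeR adjusted p = 0.209). KRT78 had too few reads to be tested. At these read numbers, whether KRT13 and KRT3 differ as their neighbours do cannot be told. KRT8 and KRT18 follow at the end of that cluster.

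Of 27 listed junction genes, linkers and other genes tied to keratin filaments, 26 were in the table, 22 were tested and 12 passed. Of these 12, 5 were higher and 7 lower in silenced cells, and the median log2 fold change of the tested genes was -0.06. Over all genes tested 16.7% passed, and 21.7% of those averaging 0 or more in log2 CPM. The share that passed among the tested genes of the list was 54.5%. The list was fixed with earlier results known, and nothing particular to it is read from the share. DSP, the desmoplakin that ties filaments to desmosomes, fell from 288 and 285 to 207 and 204 CPM, which is -0.48 on the log2 scale (standard error 0.0695; edgeR adjusted p = 0.000872). PERP, a membrane protein of desmosomes and a p53 target, fell most, from 16.7 and 15.9 to 6.15 and 6.92 CPM (log2 fold change -1.32). The plakin linkers PPL and PLEC had log2 fold changes of -0.50 and -0.36. The other plakins EVPL and DST had values of -0.05 and -0.01 and did not pass. JUP, the plakoglobin of desmosomes, was at 14.2 and 16.7 CPM in siNC and at 18.0 and 19.6 CPM in siPRR11, and its log2 fold change of 0.29 did not pass (edgeR adjusted p = 0.0916), while without siNC library 2 it did (adjusted p = 0.0141).

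Several genes of this junction and linker list rose. FLG, the filaggrin that bundles keratin in the epidermis, went from 60.7 and 63.8 to 147 and 137 CPM (log2 fold change 1.19, standard error 0.0773), and the antisense gene FLG-AS1 overlaps 5.52% of its exonic sequence. ITGB4, the integrin chain that carries keratin attachment in hemidesmosomes, went from 45.8 and 33.5 to 80.5 and 63.4 CPM (log2 fold change 0.86, standard error 0.14), whereas its partner ITGA6 fell (log2 fold change -0.28). EPPK1, a further plakin, rose from 1.48 and 0.776 to 2.87 and 2.05 CPM, and its adjusted p-value of 0.0204 (edgeR) became 0.0554 without siPRR11 library 1. PKP2, a plakophilin of desmosomes, had a log2 fold change of 0.38, and its adjusted p-value of 0.0291 (edgeR) was 0.267 without siPRR11 library 1 and 0.0608 without siNC library 2. For DSC2, a desmosomal cadherin with a log2 fold change of -0.45, it was 0.0477 with all libraries, 0.205 without siNC library 1 and 0.246 without siPRR11 library 2. PKP4 (0.33) and DSG2 (-0.26), which with ITGA6 were named after their values were seen, complete the 12. With limma on log2(RPKM + 1), 4 of the 22 genes passed (8.21% of all genes), and 5 with a pseudocount of 0.1 (8.68% of all genes).

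**Figure D3:**
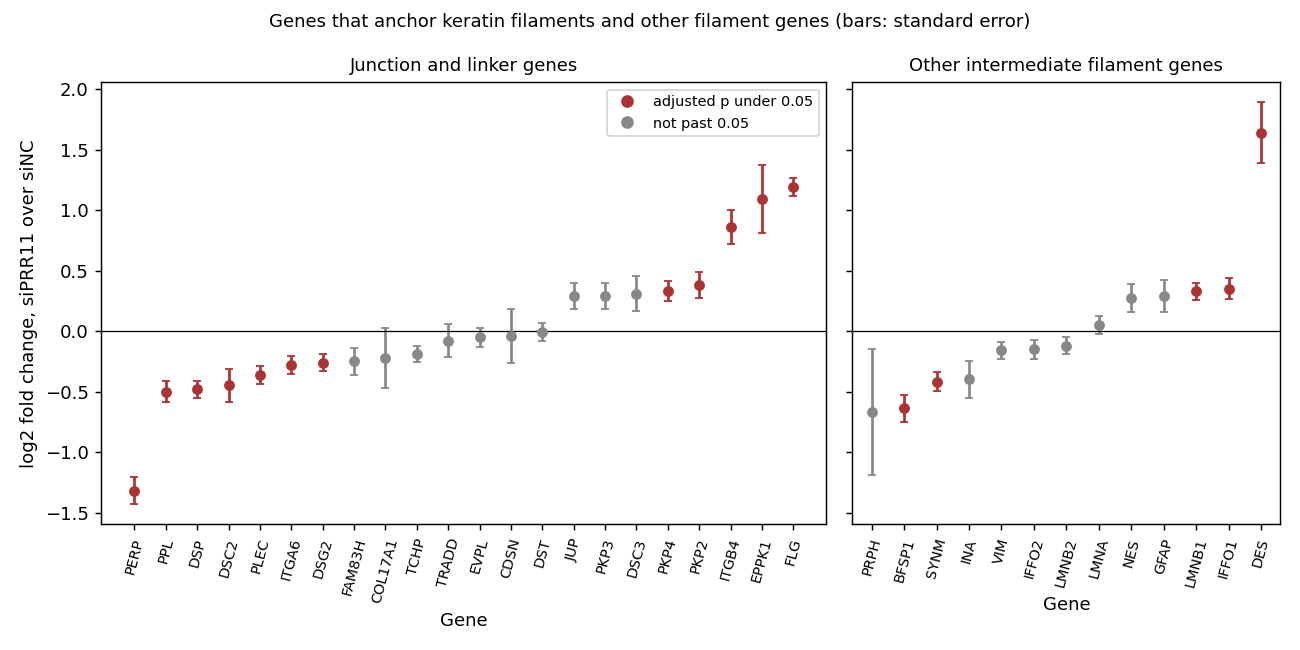
Log2 fold change with its standard error for the 22 tested junction and linker genes (left) and the 13 tested genes of other intermediate filaments (right), in red where the adjusted p-value was under 0.05. PERP is lowest at -1.32 and FLG highest at 1.19 on the left, and DES is highest at 1.64 on the right.

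VIM, the vimentin of mesenchymal cells that renal carcinoma cells also carry, was at 722 and 703 CPM in siNC and at 609 and 662 CPM in siPRR11. Both were lower than either siNC library, but the log2 fold change of -0.16 (standard error 0.0732) did not pass (edgeR adjusted p = 0.154), and antisense genes cover 24.4% of its exonic bases. Of the 13 other intermediate filament genes tested, 5 passed (38.5%), 3 higher and 2 lower, with a median of -0.12. Over all genes tested 16.7% passed, and 21.7% of those averaging 0 or more in log2 CPM. This list too was fixed with earlier results known, and nothing particular to it is read from the share. DES, the desmin of muscle, rose from 0.563 and 0.483 to 1.68 and 1.61 CPM (log2 fold change 1.64). LMNB1, a nuclear lamin, had a log2 fold change of 0.33 and IFFO1, a filament-like nuclear protein, of 0.35, and without siPRR11 library 2 neither passed (edgeR adjusted p = 0.0739 and 0.187). SYNM, the synemin that joins filaments, had a value of -0.42, and BFSP1, a filament protein of the lens, of -0.64. Exons of further genes fall on 27.7% of the SYNM and 49.0% of the BFSP1 exonic sequence, so these values are uncertain.

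Of 23 transcription and splicing factors known from epithelial gene expression, 18 were tested, with a median log2 fold change of 0.01. Of these, 2 passed (11.1%, against 16.7% of all genes tested). GRHL3, an epidermal regulator named after its value was seen, rose from 0.514 and 0.207 to 1.22 and 0.865 CPM. TP63, the regulator of basal keratins, had at most 4 reads in a library and was not tested. With limma on log2(RPKM + 1) or log2(RPKM + 0.1) no gene of the list passed an adjusted p-value of 0.05. Of all genes, 8.21% and 8.68% passed. On either scale 2 genes of the list had an unadjusted p-value under 0.05. DESeq2 called 2. The count for the list also changed when some single libraries were left out, as did the share over all genes, so nothing is read from it.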

How the data were processed

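Stranded mRNA libraries were sequenced, and the authors trimmed the reads (Trimmomatic 0.36 in the submitters' processing notes), used STAR for alignment on GRCh38 and featureCounts (Subread 1.5.1 in the same notes) for counting. The deposited table gives raw read counts per gene with no scaling. A deposited RPKM table of those genes follows from the counts to within 3.08e-06%. The annotation release, the use of strand and the handling of reads with several places are not given in the sources used here. Between 77.2% and 79.1% of counts from 1 to 9 were even.

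Libraries held 59003839 to 92612749 counts, and intervals and floors cover counting error only. Replicates differed by more than sampling noise (chi-square per degree of freedom 14.6 in siNC and 10.1 in siPRR11). Genes kept by filterByExpr were fitted with edgeR 4.0.16 (R 4.3.3), TMM and condition as the only term, and the standard error is the log2 fold change divided by the square root of F. In simulated counts for this comparison (21241 genes), 44 of 66 genes changed by 0.5 on the log2 scale and 66 of 67 changed by 1 were recovered. Alternatives were RLE, DESeq2 1.42.0, other filters, the replicate number as a term, limma 3.58.1 with a trend on log2(RPKM + 1) or log2(RPKM + 0.1), and each library left out, where the lone library of a group is assumed to vary like the others.

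The members and lists were chosen with earlier results of these data known. Named genes were PRR11, the 10 keratins, up to 8 genes of each other list past 0.05 and averaging 0 or more in log2 CPM, VIM, DSP, JUP, PLEC, the 3 genes nearest to KRT15, and pseudogenes with at least 1% of the reads of their parent. Canonical lengths and sequences are from GENCODE release 44. DSG1 and BFSP2 were not analysed here. A gene that the rule would name is not reported here.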

Additional observations from a re-analysis of the deposited data

How the results depend on the processing

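RLE normalization, DESeq2, a minimum of 10 counts in every library, and the absence of a filter left the counts of genes past 0.05 within 1.5 times for all genes and every list. Over all genes, 3622 passed, against 1775 with limma on log2(RPKM + 1), 1878 on log2(RPKM + 0.1), and 2172 to 4590 when each library was left out. Leaving out each library gave 3 to 5 of the 10 keratins and 1 to 5 epithelial regulators, which limma brought to 0 with either pseudocount. Genes of the junction and linker list past the threshold were 12, and 4 and 5 with limma. The type I to type II ratio was 1.25 in siNC and 0.918 in siPRR11 on average, and 0.712 and 0.53 with canonical lengths, an alternative added after seeing the data. It stayed between 1.22 and 1.29 and between 0.899 and 0.937 for single libraries, and adding pseudogene reads gave 1.24 and 0.91. Among the keratins, KRT15, KRT19, KRT18 and KRT81 kept their direction in all 11 alternatives. Their ranges were -2.52 to -1.23, -0.84 to -0.56, 0.27 to 0.46 and 0.18 to 1.06. KRT7, KRT80, KRT17, KRT86 and KRT23 changed sign in at least 1, and KRT8 ranged from -0.00 to 0.29. The alternatives refit the same libraries for genes chosen with this contrast in view, so nothing is read from a kept direction. The cause of the differences between settings was not tested.

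With the replicate number as a block, 6988 of all genes passed (32.3%), and 5 of the 10 keratins. So did 3 of the other keratin genes, against 2 without the block, and 15 junction and linker genes, against 12. The counts were 9 for other filament genes and 5 for epithelial regulators. VIM (edgeR adjusted p = 0.0316) and JUP (0.003) passed with the block. Outside the 10 keratins, no other gene that the naming rule picked changed its call, but some further genes of the lists did. Deviations of same-numbered libraries had a correlation of 0.482 over 14193 genes. The labels do not say whether same-numbered libraries shared a batch or culture, and this was not tested. Depth limits KRT23. How many reads KRT81 and KRT86 share was not tested.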
